A study of Mus musculus with 9 samples.

Results

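A set of 10 transcription factors that build and maintain midbrain dopaminergic neurons was followed as mRNA in the midbrain of mice with and without DJ-1. They were chosen by name: Nr4a2, Pitx3, Foxa1, Foxa2, Lmx1a, Lmx1b, En1, En2, Sox6 and Otx2, out of the 26602 genes with a count. Midbrain tissue that included the substantia nigra was taken from 4 DJ-1+/+ mice (WT in the labels) and 5 DJ-1-/- mice (KO in the labels) aged 3 to 4 months, and 1 library was made from each mouse. DJ-1-/- mice carry a targeted Park7 allele in every cell of the body, on a background backcrossed to C57BL/6, and the DJ-1+/+ mice were littermates, so that no result here belongs to dopaminergic neurons alone. No mouse received a treatment, and the labels do not give the sex of the mice. The libraries were QuantSeq 3′ libraries, in which a fragment next to the poly(A) tail is read, and copies made by PCR were removed through unique molecular identifiers (UMIs), random tags on each molecule.

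Dopaminergic neurons arise from floor plate cells of the embryonic midbrain, where the forkhead factors Foxa1 and Foxa2 and the LIM homeodomain factors Lmx1a and Lmx1b switch on the programme of the lineage. Nr4a2 (Nurr1) and Pitx3 then turn on the genes for making, packing and recovering dopamine, such as Th, Slc18a2 and Slc6a3, and the engrailed proteins En1 and En2 help the neurons to survive. In the adult, Sox6 marks neurons of the substantia nigra pars compacta, the cells lost first in Parkinson's disease, whereas Otx2 marks many neurons of the ventral tegmental area. Most of these factors are also made outside dopaminergic neurons: Sox6 in oligodendrocyte precursors and cortical-type interneurons, Otx2 in the choroid plexus and in anterior midbrain and thalamic neurons, En1 in serotonergic and other neurons of the hindbrain border, and En2 in the cerebellum.

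Between 841974 and 886085 UMIs were counted in the DJ-1+/+ mice and between 967751 and 1098125 in the DJ-1-/- mice, so that every DJ-1-/- library was the deeper one. Levels are given as the gene's count divided by the UMI total of the library and multiplied by 1000000 (cpm), and a count of 3, taken as the lower limit of what can be shown, stood for 2.73 to 3.56 cpm, which covers counting error only. No gene had more than 1359 UMIs in a library, so cpm is a scale for comparing mice and not a share of the mRNA. Park7, which encodes DJ-1, followed the labels with 135 ± 15.7 cpm (SD, n = 4) for DJ-1+/+ and 20.4 ± 4.54 cpm (SD, n = 5) for DJ-1-/- mice (adjusted p = 7.388e-08, edgeR quasi-likelihood test). Xist had 0 and 1 counts in DJ-1+/+ mice 1 and 4 and 2 counts in DJ-1-/- mouse 5, and between 146 and 193 in the other 6 mice. The Y-linked gene Ddx3y had 121, 113 and 152 counts in those same 3 mice, which were therefore spread unevenly over the genotypes.

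All 10 transcription factors reached the 10 counts over the 9 libraries needed for a test, and none differed between the genotypes after adjustment over the 18127 genes tested (adjusted p = 1 for each, edgeR), where 0.00552% of all genes, Park7 alone, did. In 6 of them the fitted level was higher in DJ-1-/- and in 4 it was lower, and the median log2 fold change of the 10 was 0.04 (0.002 without Pitx3) against 0.008 for all genes tested. Pitx3 and Foxa1 had an unadjusted p under 0.05, both with higher levels in DJ-1-/- mice. Among all genes tested, 2.83% had such a p in either direction and 1.57% in this direction. The levels of DJ-1+/+ and DJ-1-/- mice overlapped for every one of the 10, and 1.25% of all genes tested had levels that did not overlap. Tissue pieces hold many cell types, and fewer dopaminergic neurons could not be told apart from less RNA in each of them.

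**Figure D1:**
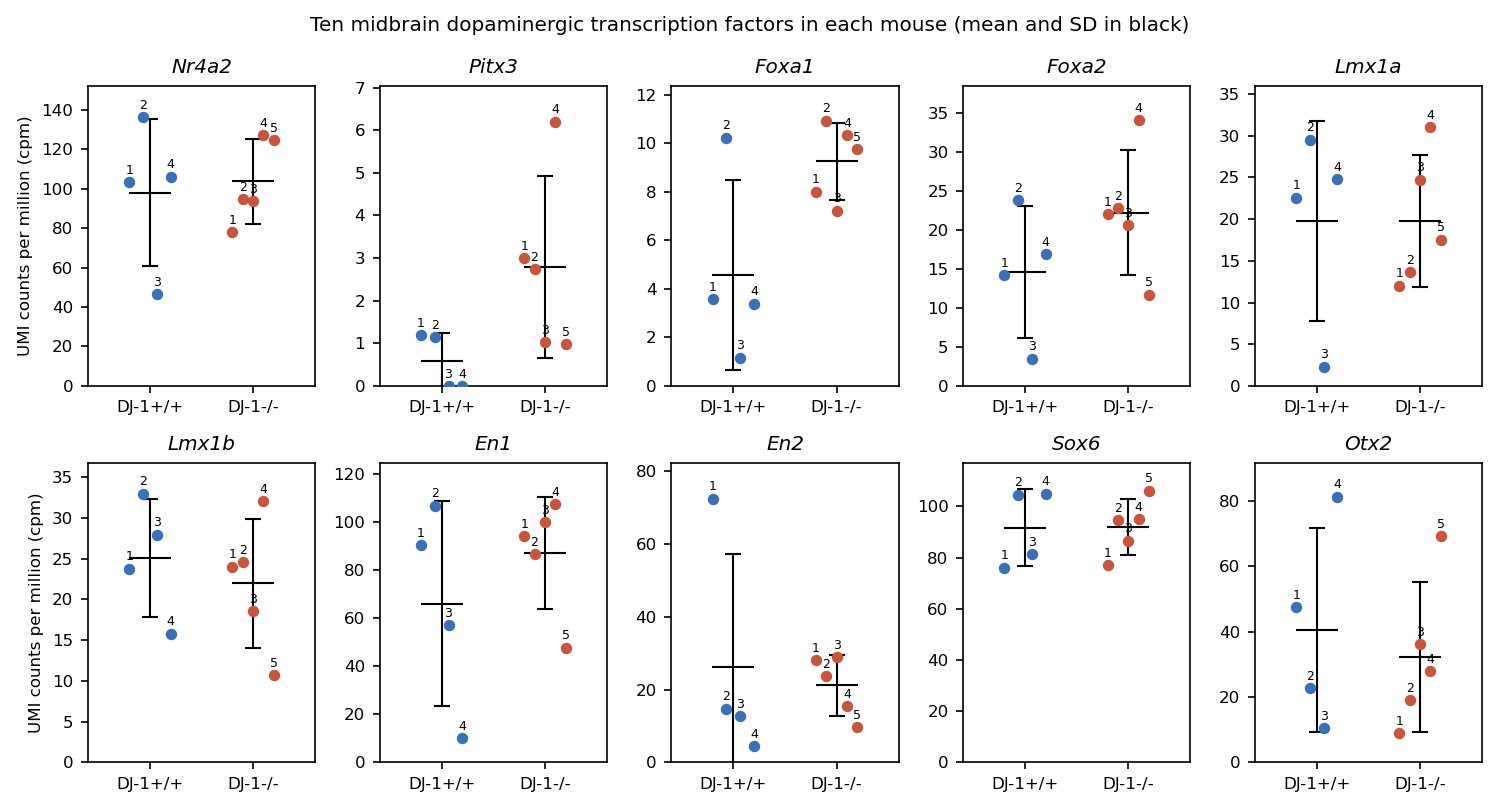
Level of each transcription factor in cpm (vertical axis, starting at 0) in DJ-1+/+ (blue, 4 mice) and DJ-1-/- (red, 5 mice), 1 point per mouse with its number, black lines for the mean and SD, cut off at 0. The groups overlap in every panel, and single mice stand apart in En2 (DJ-1+/+ mouse 1, 72.4 cpm) and En1 (DJ-1+/+ mouse 4, 10.2 cpm).

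Nr4a2 is an orphan nuclear receptor that drives the dopamine synthesis genes and is needed for the upkeep of these neurons throughout life. It spans chromosome 2, 57106830 to 57124003 (minus strand; GRCm38, GENCODE M21, as for all positions of genes here). Nr4a2 had 87, 120, 40 and 94 counts in DJ-1+/+ mice 1 to 4 and 78, 104, 91, 123 and 128 counts in DJ-1-/- mice 1 to 5. DJ-1+/+ mouse 3 was far below the other 8, and the other 3 DJ-1+/+ mice, at 103 to 136 cpm, overlapped the DJ-1-/- mice at 78.1 to 127 cpm. Its level was 98.1 ± 37.5 cpm (SD, n = 4) for DJ-1+/+ and 104 ± 21.4 cpm (SD, n = 5) for DJ-1-/- mice (exact permutation test, two-sided p = 0.778). In the edgeR fit the log2 difference of Nr4a2 was 0.08 (standard error 0.21, 95% interval −0.37 to 0.52), and it was −0.16 without DJ-1+/+ mouse 3.

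As a monomer, Nr4a2 binds the letters AAAGGTCA or their reverse complement TGACCTTT, and promoter windows from 250 bases before to 50 bases after each transcription start (RefSeq, GRCm38.p6) were searched for them on both strands. Of 32851 windows in the genome, 1.51% held a match. Among 9 of the transcription factors, with 19 windows in all, Sox6 had 1, and among 11 of 15 target and effector genes, with 13 windows, Ddc had 1; En2 had no window. The matches are shown because Nr4a2 and these genes were measured in the same mice, 5′ to 3′ along the gene with the matching letters in capitals, at chr7:116031086-116031153 (minus strand) and chr11:11898180-11898247 (minus strand).
Sox6: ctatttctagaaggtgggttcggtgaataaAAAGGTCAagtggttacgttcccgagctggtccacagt
Ddc: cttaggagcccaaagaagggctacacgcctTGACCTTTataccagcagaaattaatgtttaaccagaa
The Sox6 match begins 76 bases and the Ddc match 73 bases before the RefSeq start that defines its window. The Sox6 window lies within the span of Sox6 given below, so its start is not the outermost of the gene. In DJ-1+/+ mouse 3, where Nr4a2 had 40 counts, Sox6 had 70 and Ddc 103. Both were within the range of the other mice of that genotype. This is 1 mouse, and whether Sox6 or Ddc follows Nr4a2 was not tested. A match of letters is a description and does not show binding.

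Pitx3 is a homeodomain factor that acts beside Nr4a2 and is needed above all by neurons of the substantia nigra. It spans chromosome 19, 46135685 to 46148326 (minus strand) and had the fewest counts of the 10. Pitx3 had 1, 1, 0 and 0 counts in DJ-1+/+ mice and 3, 3, 1, 6 and 1 counts in DJ-1-/- mice. Only DJ-1-/- mouse 4 was above 3 counts, the limit of what can be shown in a single library, and the value of 1 count occurred in both genotypes. Summed over the mice these are 14 counts in DJ-1-/- against 2 in DJ-1+/+, a ratio of 4.80 per UMI with an exact 95% interval from 1.10 to 43.5 that covers counting error only. The unadjusted p was 0.0402 in edgeR, and the difference in cpm did not pass the exact permutation test (two-sided p = 0.0952). DESeq2 gave an unadjusted p of 0.0733, and the edgeR p was also above 0.05 without any 1 of DJ-1+/+ mice 3 and 4 and DJ-1-/- mice 1, 2 and 4. The opposite-strand gene Elovl3, which overlaps Pitx3, had 1 count in all, and whether reads were counted by strand is not given in the sources used here.

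Foxa1 and Foxa2 are forkhead proteins that open chromatin for the other factors of the lineage and stay on in adult dopaminergic neurons. Foxa1 spans chromosome 12, 57540628 to 57546916 (minus strand), and Foxa2 chromosome 2, 148042877 to 148046969 (minus strand). Foxa1 had 3, 9, 1 and 3 counts in DJ-1+/+ mice and 8, 12, 7, 10 and 10 counts in DJ-1-/- mice. DJ-1+/+ mice 1, 3 and 4 were below every DJ-1-/- mouse, and DJ-1+/+ mouse 2 lay inside the DJ-1-/- range. Its level was 4.59 ± 3.92 cpm (SD, n = 4) for DJ-1+/+ and 9.25 ± 1.57 cpm (SD, n = 5) for DJ-1-/- mice (exact permutation test, two-sided p = 0.0635). For Foxa1 edgeR fitted a log2 fold change of 0.99 (standard error 0.46, 95% interval 0.01 to 1.97) at an unadjusted p of 0.0477. Leaving out DJ-1+/+ mouse 3 moved this estimate to 0.68, and leaving out DJ-1+/+ mouse 2 moved it to 1.72. It no longer had an unadjusted p under 0.05 without any 1 of DJ-1+/+ mice 1, 3 and 4 and DJ-1-/- mice 1, 2, 4 and 5.

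Foxa2 had 12, 21, 3 and 15 counts in DJ-1+/+ mice and 22, 25, 20, 33 and 12 counts in DJ-1-/- mice. The lowest mouse was again DJ-1+/+ mouse 3, and DJ-1-/- mouse 5 sat below 3 of the DJ-1+/+ mice. On average Foxa2 was at 14.6 ± 8.46 cpm (SD, n = 4) against 22.2 ± 7.98 cpm (SD, n = 5), with an exact permutation test of two-sided p = 0.222. Foxa2 had a fitted log2 difference of 0.59 (standard error 0.38, 95% interval −0.22 to 1.40), and 0.27 without DJ-1+/+ mouse 3. Without DJ-1+/+ mouse 2 it was 0.92 (unadjusted p = 0.0419, edgeR). Of the counts of both genes in a mouse, Foxa1 made up between 16.7% and 45.5%, and this balance did not differ between genotypes beyond its spread (exact permutation test of the log2 difference, two-sided p = 0.333).

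Forkhead proteins bind the letters TGTTTAC, which occurred on either strand in 3.65% of all promoter windows. Of the 9 transcription factors with a window, Foxa1 alone held a match. It begins 141 bases before the RefSeq start of a window that lies within the span of Foxa1 given above. Among the target and effector genes, Cck and Dlk1 held a match. The stretch at chr12:57546216-57546282 (minus strand) is shown because it carries the letters in a forkhead gene itself, with the match, here the reverse complement, in capitals.
Foxa1: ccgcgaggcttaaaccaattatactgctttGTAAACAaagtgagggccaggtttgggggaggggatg
Foxa1 and Foxa2 were low in the same library, DJ-1+/+ mouse 3, with 1 and 3 counts.

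Lmx1a and Lmx1b are LIM homeodomain factors of the floor plate and roof plate that specify the lineage and keep its mitochondrial genes active in the adult; Lmx1b is also needed for serotonergic neurons. Lmx1a spans chromosome 1, 167689237 to 167848741 (plus strand), and Lmx1b chromosome 2, 33560965 to 33640511 (minus strand). Lmx1a had 19, 26, 2 and 22 counts in DJ-1+/+ mice and 12, 15, 24, 30 and 18 counts in DJ-1-/- mice. DJ-1+/+ mouse 3 was under the limit of 3 counts while the other 8 mice had at least 12. DJ-1-/- mice 1, 2 and 5, at 12.0, 13.7 and 17.5 cpm, were below the other 3 DJ-1+/+ mice, at 22.6 to 29.5 cpm, and DJ-1-/- mouse 4 was above them. The mean was 19.8 cpm in both genotypes, with an SD of 12.0 over 4 and of 7.96 over 5 mice, and the fitted change was −0.01 on the log2 scale (standard error 0.42, 95% interval −0.91 to 0.89); without DJ-1+/+ mouse 3 it was −0.38.

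Lmx1b had 20, 29, 24 and 14 counts in DJ-1+/+ mice and 24, 27, 18, 31 and 11 counts in DJ-1-/- mice. Here the low mice were others, DJ-1+/+ mouse 4 and DJ-1-/- mouse 5, and DJ-1+/+ mouse 3 was not among them. The level of Lmx1b was 25.1 ± 7.26 cpm (SD, n = 4) for DJ-1+/+ and 22.0 ± 7.91 cpm (SD, n = 5) for DJ-1-/- mice (exact permutation test, two-sided p = 0.508). The fitted log2 difference of Lmx1b was −0.19 (standard error 0.29, 95% interval −0.80 to 0.41). Lmx1a made up 7.69% of the counts of the pair in DJ-1+/+ mouse 3 and up to 62.1% in DJ-1-/- mouse 5, with no difference between genotypes beyond this spread (exact permutation test, two-sided p = 0.635).

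En1 and En2 are homeodomain proteins that pattern the border of midbrain and hindbrain and, in the adult, protect dopaminergic neurons. En1 spans chromosome 1, 120602418 to 120607992 (plus strand), and En2 chromosome 5, 28165694 to 28172166 (plus strand). En1 had 76, 94, 49 and 9 counts in DJ-1+/+ mice and 94, 95, 97, 104 and 49 counts in DJ-1-/- mice. Most mice of both genotypes lay close together, with DJ-1+/+ mouse 4 far below and DJ-1+/+ mouse 3 and DJ-1-/- mouse 5 between. Mean En1 was 66.1 ± 42.6 cpm (SD, n = 4) for DJ-1+/+ and 87.2 ± 23.3 cpm (SD, n = 5) for DJ-1-/- mice (exact permutation test, two-sided p = 0.429). Its log2 fold change of 0.40 (standard error 0.35, 95% interval −0.33 to 1.13) came to 0.03 without DJ-1+/+ mouse 4.

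En2 had 61, 13, 11 and 4 counts in DJ-1+/+ mice and 28, 26, 28, 15 and 10 counts in DJ-1-/- mice. DJ-1+/+ mouse 1 was above all other mice, whereas the other 3 DJ-1+/+ mice were each below at least 4 of the DJ-1-/- mice in cpm. Mean En2 was 26.1 ± 31.2 cpm (SD, n = 4) for DJ-1+/+ and 21.2 ± 8.30 cpm (SD, n = 5) for DJ-1-/- mice (exact permutation test, two-sided p = 0.841). The sign of the difference rested on that 1 library: the log2 fold change was −0.29 (standard error 0.54, 95% interval −1.43 to 0.85) with all mice and 0.98 (unadjusted p = 0.0319, edgeR) without DJ-1+/+ mouse 1. Granule and Purkinje cell markers were found in that library, with 102 counts of Gabra6 and 79 of Pcp2 against at most 2 counts of either gene in any other mouse. En1 made up 55.5% of the counts of the pair in DJ-1+/+ mouse 1 and between 69.2% and 87.9% in the other mice.

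**Figure D2:**
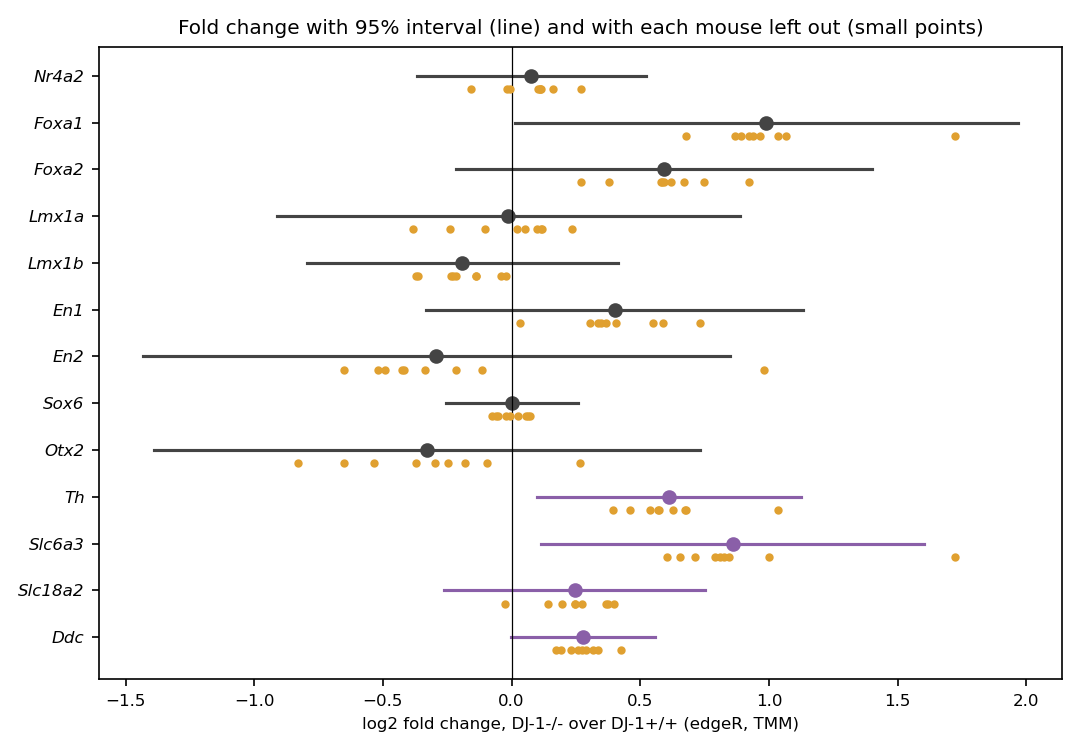
Log2 fold change of DJ-1-/- over DJ-1+/+ (horizontal axis, edgeR after TMM normalization) for 9 transcription factors (grey) and 4 genes of dopamine handling (purple), with 95% intervals as lines and the estimate with each mouse left out as small orange points; Pitx3 is left out because of its few counts. Nr4a2, Lmx1a, En2, Sox6, Otx2 and Slc18a2 have points on both sides of 0, those of En2 furthest apart, and Sox6 stays within 0.08 of 0 throughout.

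Sox6 is an SRY-box factor that separates substantia nigra neurons from those of the ventral tegmental area. It spans chromosome 7, 115470872 to 116038796 (minus strand). Sox6 had 64, 92, 70 and 93 counts in DJ-1+/+ mice and 77, 104, 84, 92 and 109 counts in DJ-1-/- mice. No mouse stood apart, and the DJ-1+/+ mean of 91.7 ± 15.2 cpm (SD, n = 4) was all but the same as the DJ-1-/- mean of 91.9 ± 10.8 cpm (SD, n = 5). On the log2 scale the genotypes differed by 0.00 (standard error 0.12), and the 95% interval from −0.25 to 0.26 was the narrowest of the 10. Sox6 is also made by oligodendrocyte precursors, and the 12 marker genes of that list summed to between 926 and 1004 cpm in DJ-1+/+ and between 936 and 1005 cpm in DJ-1-/- mice, and none of the 12 passed an unadjusted p of 0.05. The antisense gene Sox6os had 16 counts in all.

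Otx2 is a homeodomain factor of the forebrain and midbrain that in adult dopaminergic neurons marks the ventral tegmental area. It spans chromosome 14, 48657677 to 48673819 (minus strand). Otx2 had 40, 20, 9 and 72 counts in DJ-1+/+ mice and 9, 21, 35, 27 and 71 counts in DJ-1-/- mice. Both genotypes ran from about 10 cpm to about 70 or 80 cpm, with DJ-1+/+ mouse 4 and DJ-1-/- mouse 5 highest. Mean Otx2 was 40.5 ± 31.2 cpm (SD, n = 4) for DJ-1+/+ and 32.3 ± 23.0 cpm (SD, n = 5) for DJ-1-/- mice (exact permutation test, two-sided p = 0.635). Otx2 thus had a log2 fold change of −0.33 (standard error 0.50, 95% interval −1.39 to 0.73), and of 0.27 without DJ-1+/+ mouse 4. The 3 mice with the highest Otx2 were those near 0 in Xist, and with log2 cpm of Xist in the model the log2 fold change was 0.37 (unadjusted p = 0.292, edgeR). Among the 6 mice with Xist counts it was 0.45 (unadjusted p = 0.341, edgeR), and the 3 mice near 0 in Xist include 1 DJ-1-/- mouse, too few for a test of their own.

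Engrailed and LIM homeodomain proteins bind the letters TAATTA, which read the same on both strands and occurred in 5.29% of all promoter windows. Otx2 was the only one of the transcription factors to hold them, in 2 of its windows, and none of the 13 windows of the target and effector genes did. The stretch at chr14:48665228-48665359 (minus strand) is shown because it carries 3 copies, in capitals. An action of En1 on Otx2 was not tested, and matching letters do not show binding.
Otx2: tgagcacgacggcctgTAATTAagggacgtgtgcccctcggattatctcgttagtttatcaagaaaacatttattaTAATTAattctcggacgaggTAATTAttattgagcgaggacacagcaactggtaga
The letters TAATCC, bound by bicoid-type homeodomain proteins such as Otx2 and Pitx3, were on either strand in 7.06% of all windows, and in 1 window each of Otx2 and Sox6.

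Set against each other, En1 and Otx2 sorted the mice in a way that did not follow genotype. On the scale of log2(cpm + 1), En1 was above Otx2 by 0.91, 2.18 and 2.34 in DJ-1+/+ mice 1 to 3 and below it by a difference of −2.88 in DJ-1+/+ mouse 4. In DJ-1-/- mice 1 to 4 the difference was 3.25, 2.12, 1.45 and 1.91, and in DJ-1-/- mouse 5 it was −0.53. One mouse of each genotype thus had more Otx2 than En1 counts, and the difference between genotypes was within the spread (exact permutation test, two-sided p = 0.492). Sox6 and Otx2, the pair that marks substantia nigra and ventral tegmental area, gave the same order at the low end. Otx2 is in both pairs, so this order is not a separate observation. Sox6 made up 56.4% of the counts of the pair in DJ-1+/+ mouse 4, 60.6% in DJ-1-/- mouse 5 and 61.5% in DJ-1+/+ mouse 1. It made up 70.6% to 89.5% in the others (exact permutation test between genotypes, two-sided p = 0.714).

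**Figure D3:**
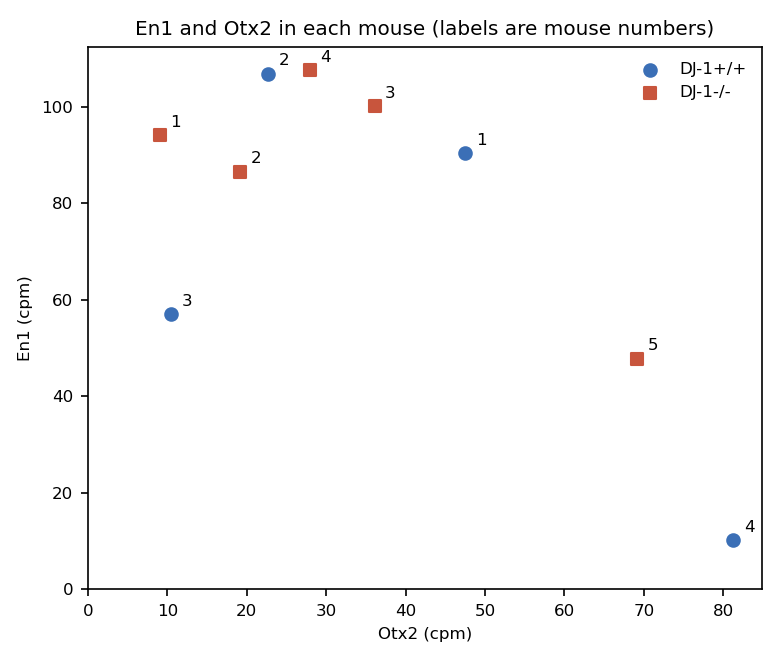
Level of Otx2 (horizontal axis, cpm) and En1 (vertical axis, cpm) in each mouse, blue circles for DJ-1+/+ and red squares for DJ-1-/-, with mouse numbers. DJ-1+/+ mouse 4 and DJ-1-/- mouse 5 lie at the lower right, at 81.3 and 69.2 cpm of Otx2, away from the other 7 mice.

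Some genes of the neighbouring regions moved with these levels in the same libraries. Tph2 and Slc6a4, the synthesis enzyme and transporter of serotonergic neurons, had 2 and 0 counts in DJ-1+/+ mouse 4 and 0 counts each in DJ-1-/- mouse 5, against at least 37 and 42 counts in every other mouse; a count of 0 allows up to 3.39 cpm in the first library and 2.92 cpm in the second. Gbx2, a patterning gene expressed in thalamus and hindbrain, had 31 and 32 counts in those libraries and between 1 and 13 in the others. These are also the libraries with the fewest Lmx1b counts. The 9 serotonergic markers summed to between 266 and 585 cpm in DJ-1+/+ and between 297 and 585 cpm in DJ-1-/- mice, lowest in the same 2 mice, and none of the 9 passed an unadjusted p of 0.05 between genotypes. Not all of the 9 were low there. Maob was at 101.6 cpm in DJ-1+/+ mouse 4, the highest of all mice. Gata2 was at 30.2 cpm in DJ-1-/- mouse 5, the highest of that genotype. The part of these regions in the levels of En1, Lmx1b and Otx2 was not tested.

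A different set of libraries was low in the hypothalamic neuropeptide genes Hcrt (orexin) and Pmch. In DJ-1+/+ mice 1 and 3 and DJ-1-/- mouse 1, Hcrt had 2, 0 and 5 counts and Pmch had 8, 15 and 14, whereas Pmch had between 113 and 215 in the other 6 mice. DJ-1-/- mouse 2 was low in Hcrt as well (12 counts) but not in Pmch. Cartpt, another neuropeptide gene of this list, did not follow the 3 libraries. It had 115 and 11 counts in DJ-1+/+ mice 1 and 3 and 220 in DJ-1-/- mouse 1, against 77 to 197 in the other 6 mice. DJ-1+/+ mouse 3, with the lowest Nr4a2, Foxa1, Foxa2 and Lmx1a of all mice, also had the lowest sum of the 10 hypothalamic and subthalamic markers at 180 cpm, while DJ-1+/+ mouse 1, at 276 cpm, had 22.6 cpm of Lmx1a. The sums were 180 to 810 cpm in DJ-1+/+ and 369 to 833 cpm in DJ-1-/- mice, and none of the 10 passed an unadjusted p of 0.05. When DJ-1+/+ mice 1 and 3 and DJ-1-/- mouse 1 were left out, a choice made after the values were seen, the log2 fold change was 0.48 for Foxa1, 0.12 for Foxa2 and −0.15 for Nr4a2, with none of the 10 transcription factors at an unadjusted p under 0.05.

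Markers of choroid plexus and cerebellum were lower in DJ-1-/- mice in more of their genes, although none passed after adjustment. Of 20 choroid plexus genes, 18 had a lower fitted level in DJ-1-/- mice, 9 of them at an unadjusted p under 0.05 where 1.26% of all genes tested were lower with such a p. Their sum was highest in DJ-1+/+ mouse 4 at 1531 cpm and mouse 1 at 705 cpm, and between 433 and 637 cpm in the other mice of both genotypes. Ttr, the choroid plexus transport protein for thyroid hormone, had 182, 25, 57 and 342 counts in DJ-1+/+ and 65, 147, 75, 31 and 89 counts in DJ-1-/- mice, and Kl and Folr1, the 2 genes of the list with the smallest p, had most counts in DJ-1+/+ mouse 4 (50 and 31). Between 0 and 4 of the 20 genes were at 0 counts in a library, and Folr1 was at 0 in DJ-1+/+ mouse 2 and DJ-1-/- mouse 5. Of 16 cerebellar genes, 13 were lower in DJ-1-/-, 9 of them at an unadjusted p under 0.05, and their sum was 1757 cpm in DJ-1+/+ mouse 1 and between 665 and 878 cpm in all others. Ependymal markers had sums of overlapping range, and none of the 10 passed. The highest Otx2 and the highest choroid plexus sum were in DJ-1+/+ mouse 4. DJ-1-/- mouse 5 had nearly as much Otx2, with 438 cpm of choroid plexus genes. The part of the choroid plexus in the level of Otx2 was not tested. When DJ-1+/+ mice 1 and 4 were left out, none of the 10 transcription factors had an unadjusted p under 0.05 in edgeR, and Otx2 had a log2 fold change of 0.95.

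**Figure D4:**
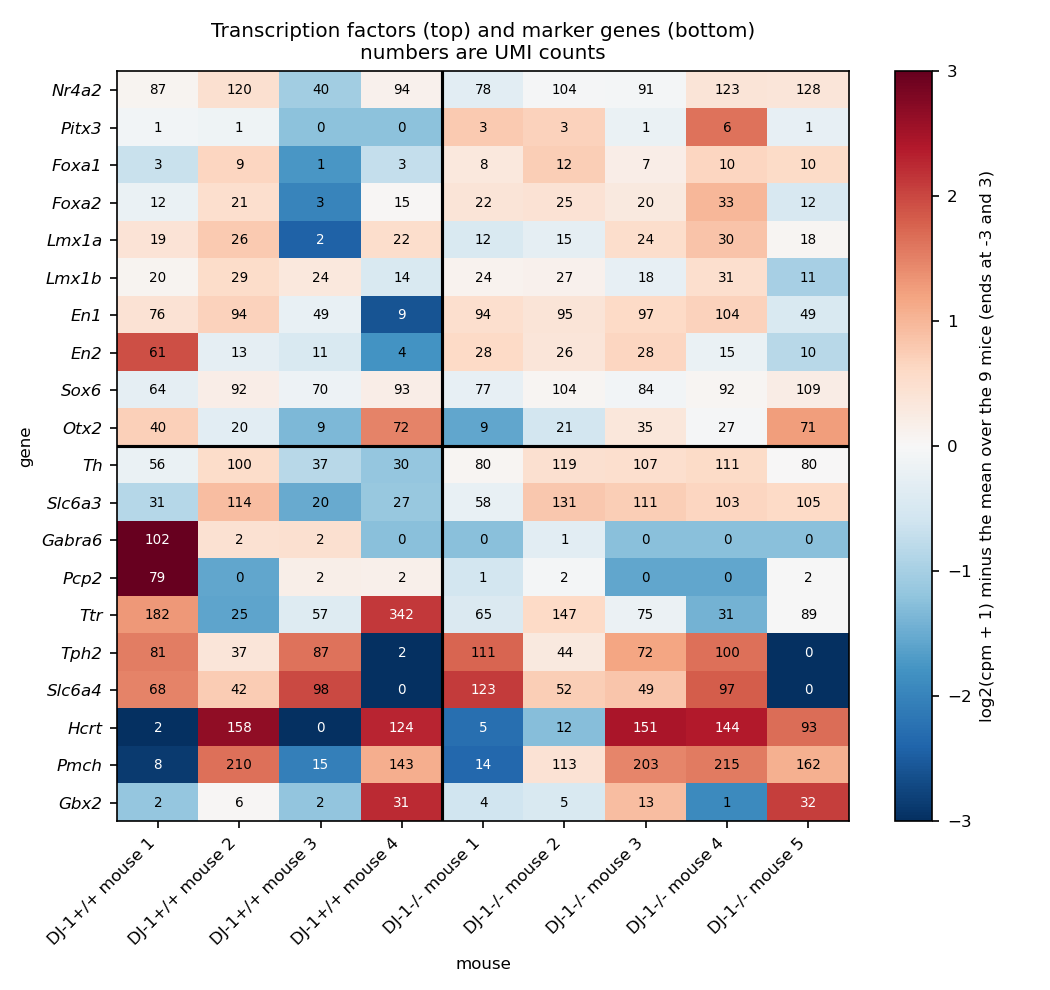
UMI counts (numbers) of the 10 transcription factors and of marker genes in each mouse, coloured by log2(cpm + 1) minus its mean over the 9 mice (red higher, blue lower; colours end at −3 and 3). DJ-1+/+ mouse 4 and DJ-1-/- mouse 5 share low Tph2, Slc6a4 and En1 with high Otx2 and Gbx2, and DJ-1+/+ mouse 3 is blue from Nr4a2 to Lmx1a.

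How unevenly a gene was spread over mice of 1 genotype was measured as the chi-square statistic per degree of freedom of its counts against an equal cpm, for which counting error alone gives a value near 1. The median over all genes tested was 1.12. Otx2 reached 18.6, En2 15.7 and En1 14.0, which were higher than in 99.5%, 99.4% and 99.2% of the genes tested. Nr4a2 at 7.82, Lmx1a at 4.53 and Foxa2 at 3.45 were also above the 90th percentile of 2.79, whereas Lmx1b (2.43), Sox6 (1.67), Foxa1 (1.40) and Pitx3 (1.20) were below it. Sox6 was higher than 72.6% of the genes tested; for Pitx3 and Foxa1, few counts leave little room for such a statistic to rise.

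Downstream of these factors, the dopaminergic programme was examined as a list of 15 target and effector genes of dopaminergic neurons. Of these, 14 had a higher fitted level in DJ-1-/- mice, and Th, Slc6a3, Ret and Chrna6 had an unadjusted p under 0.05, against 1.57% of all genes tested in that direction; no gene of the list passed after adjustment with all mice and the filter on low counts. The median log2 fold change of the list was 0.27. Th, the rate-limiting enzyme of dopamine synthesis, had 56, 100, 37 and 30 counts in DJ-1+/+ and 80, 119, 107, 111 and 80 counts in DJ-1-/- mice. DJ-1+/+ mouse 2 lay within the DJ-1-/- range, and the other 3 were below every DJ-1-/- mouse. The log2 fold change of Th was 0.61 (standard error 0.24, unadjusted p = 0.0225 in edgeR), with an exact permutation test of two-sided p = 0.0952.

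Slc6a3, the dopamine transporter, had 31, 114, 20 and 27 counts in DJ-1+/+ and 58, 131, 111, 103 and 105 counts in DJ-1-/- mice. As with Th and Foxa1, DJ-1+/+ mice 1, 3 and 4 were below every DJ-1-/- mouse, and DJ-1+/+ mouse 2, at 129.6 cpm, was here above all of them. Its log2 fold change was 0.86 (standard error 0.35, unadjusted p = 0.0262 in edgeR), and the exact permutation test gave a two-sided p of 0.127. Slc18a2, which loads dopamine into vesicles, differed by 0.25 (standard error 0.24), and Ddc, the enzyme that completes dopamine synthesis, by 0.28 (standard error 0.13, unadjusted p = 0.0508 in edgeR) on the log2 scale. Ret, the receptor for the survival factor GDNF, gave 0.25 and Chrna6, a nicotinic receptor subunit of these neurons, 0.89. Th had no unadjusted p under 0.05 without any 1 of DJ-1+/+ mice 3 and 4 and DJ-1-/- mice 2, 3 and 4, nor did Slc6a3 without any 1 of these or DJ-1+/+ mouse 1. Without DJ-1+/+ mouse 2 the estimates were higher instead, with a log2 fold change of 1.04 for Th (adjusted p = 0.401, edgeR) and of 1.72 for Slc6a3 (adjusted p = 0.0206, edgeR). With no filter on low counts, Th (adjusted p = 0.0214) and Slc6a3 (adjusted p = 0.00156) also passed after adjustment in edgeR, at log2 fold changes of 0.62 and 0.87. The count of 4 genes moved with single libraries: it was 0 without DJ-1+/+ mouse 3, DJ-1-/- mouse 2 or DJ-1-/- mouse 4, 1 without DJ-1+/+ mouse 1 or DJ-1-/- mouse 3, 2 without DJ-1+/+ mouse 4, 6 without DJ-1-/- mouse 5 and 7 without DJ-1+/+ mouse 2. It was 2 among the 6 mice with Xist counts.

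Paralogs and partner proteins of the 10 factors did not follow the genotypes. Of 20 such genes, Foxa3 had no count, and of the other 19 the fitted level was higher in 9 and lower in 10, none of them at an unadjusted p under 0.05. The smallest p values were those of Nr4a3 (log2 fold change 0.50, standard error 0.35) and Sox5 (−0.15, standard error 0.11). Of 15 genes that pattern the embryonic midbrain, Wnt1 and Fgf8 had no count, and of the 13 tested 7 were higher and 6 lower with none at an unadjusted p under 0.05. Msx1, a homeobox gene downstream of Lmx1a, had a log2 fold change of −0.69 (standard error 0.39) and 37 of its counts in DJ-1+/+ mouse 4.

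For the 6 transcription factors with a mean of at least 20 counts, the genes with the most similar profile over the 9 mice were looked up among 10770 genes by Pearson's r of log2(cpm + 1), as a description of libraries that share depth and tissue composition. The highest of so many correlations over 9 mice are large by selection alone, so r is no test of a link. Nearest to Nr4a2 were Mfhas1 (r = 0.97), Sdf4 (0.96) and Capza2 (0.94). En1 was nearest to Spr (0.99), the last enzyme in making the tetrahydrobiopterin cofactor that Th needs, followed by Nova1 (0.95) and Nup205 (0.95). Otx2 was nearest to Lhx9 (0.94), a LIM homeodomain gene of thalamic and tectal neurons, then to Cacna1g (0.93), the T-type calcium channel abundant in the thalamus, and Rb1cc1 (0.93). For Lmx1b the nearest genes were Sulf2 (0.96), Taf7 (0.95) and Cyp26b1 (0.93). For En2 they were 2310011J03Rik (0.97), Anapc15 (0.95) and Fxyd1 (0.94). Sox6 was nearest to Ehbp1, Lrrc55 and Larp1b (0.96 each). None of these 6 transcription factors was among the 3 nearest genes of another, and the other 4 had too few counts to be compared.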

How the data were processed

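Whole-number UMI counts per Ensembl gene, not normalized, were deposited by the authors for each of the 9 libraries. The submitters' processing notes name fastp 0.20.0, STAR 2.7.3a, featureCounts 2.0.0 (Subread), UMI-tools 1.0.0 and GRCm38; the strand setting of counting is not given in the sources used here. UMIs remove PCR copies, and intervals of counts and of count ratios cover counting error only. A gene not listed in a library was given 0 counts, and symbols and positions came from GENCODE M21, which holds 26576 of the 26602 genes.

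The 18127 genes with at least 10 counts over all libraries were tested with edgeR 4.0.16 (quasi-likelihood test, TMM, genotype as the only term) in R 4.3.3, with Benjamini-Hochberg adjustment over all of them. Intervals of log2 fold changes are 95% intervals from that fit and include the spread between mice, its standard error being the change divided by the square root of F. Cpm was compared by exact two-sided permutation tests (scipy 1.17.1), whose smallest p with 4 mice against 5 is 0.0159. Alternatives were RLE factors, library totals, DESeq2 1.42.0, other filters, thinned counts, a term for Xist, a block by replicate number, and libraries left out. The scripts were tested on simulated data. No 2 libraries were copies of each other by a chi-square comparison of their counts.

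Genes were named from the 10 factors, Park7, Th, Slc6a3, Slc18a2 and Ddc, the 2 of smallest p (and, for other cell types, the 2 most abundant) in each list, and the 3 nearest in profile; Ret, Chrna6, Tph2, Slc6a4, Gbx2, Hcrt, Xist and Ddx3y were singled out with their values already known. Some genes of the lists are not reported here by name. The 10 factors and all lists were chosen with earlier results of these data known.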

Additional observations from a re-analysis of the deposited data

Results flagged for a closer look

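Single mice set apart from the rest of their genotype were looked for with Dixon's test, in 48 groups of values, of which 3 were flagged and 2.4 would be by chance at 1 in 20. En2 was at 72.4 cpm in DJ-1+/+ mouse 1, far above the other 3 DJ-1+/+ mice at 4.51 to 14.8 cpm; the same library held 102 counts of Gabra6 and 79 of Pcp2, and their part in the En2 level was not tested. Slc6a3 was at 129.6 cpm in DJ-1+/+ mouse 2, the DJ-1+/+ mouse that also had the highest Th, Foxa1, Foxa2 and Nr4a2 of its genotype. Slc6a3 was at 58.1 cpm in DJ-1-/- mouse 1, the lowest DJ-1-/- mouse, where Hcrt had 5 and Pmch 14 counts.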

How the results depend on the processing

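Over 21 alternative settings the 10 transcription factors gave 208 fold changes to set beside the reported ones: 141 kept their direction and their side of an unadjusted 0.05, 26 lost and 3 gained it, and 38 changed sign. Both sign changes past 0.05 were those of En2 when DJ-1+/+ mouse 1 was left out, alone or with DJ-1+/+ mouse 4 and DJ-1-/- mouse 5. The number of transcription factors with an unadjusted p under 0.05 was 2 as reported, 3 with no filter on low counts (Pitx3, Foxa1 and En1), 1 with RLE factors, 0 with DESeq2, filterByExpr (which did not test Pitx3 and Foxa1) or Xist as a term, and 0 to 3 with each mouse left out. Joint omissions of mice, of which the last 3 were chosen after seeing the data, gave 0 without DJ-1+/+ mice 1 and 4, 0 without DJ-1+/+ mouse 4 and DJ-1-/- mouse 5, 0 without DJ-1+/+ mice 1 and 3 and DJ-1-/- mouse 1, and 1 without DJ-1+/+ mice 1 and 4 and DJ-1-/- mouse 5. Among all genes the number was 513 as reported, 235 with DESeq2, 802 with no filter on low counts, 338 with filterByExpr, and 338 to 732 with each mouse left out. After adjustment it was 1 as reported, 36 with no filter, 1 to 2 with each mouse left out, and 2, 2 and 3 in the last 3 joint omissions.

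Log2 fold changes that changed sign were as follows. With Xist as a term they were 0.083 for Lmx1a, 0.051 for En2 and 0.37 for Otx2. With thinned counts Lmx1a was 0.036. Sox6 was −0.0086 with RLE factors, −0.0082 with DESeq2 and −0.0070 with filterByExpr. Without DJ-1+/+ mice 1 and 4 Lmx1a was 0.30, En2 0.61, Sox6 −0.013 and Otx2 0.95, and with DJ-1-/- mouse 5 left out too these were 0.33, 0.79, −0.076 and 0.45. Lmx1a was 0.14 without DJ-1+/+ mouse 4 and DJ-1-/- mouse 5. Without DJ-1+/+ mice 1 and 3 and DJ-1-/- mouse 1, Nr4a2 was −0.15, En2 0.998 and Sox6 −0.14. With each mouse left out in turn, Nr4a2 ran from −0.16 to 0.27, Lmx1a from −0.38 to 0.24, En2 from −0.65 to 0.98, Sox6 from −0.076 to 0.073, Otx2 from −0.83 to 0.27 and Slc18a2 from −0.028 to 0.40. The difference in mean cpm then ran from −11.6 to 18.4 for Nr4a2, −5.85 to 3.22 for Lmx1a, −12.2 to 10.5 for En2, −5.04 to 4.61 for Sox6 and −18.2 to 5.36 for Otx2. The cause was not tested.

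Replicate numbers are shared by the genotypes in the labels, but nothing says that they pair mice. Same-numbered mice deviated together with correlations of 0.29, 0.06, −0.12 and −0.20 over 10770 genes, and among the DJ-1+/+ mice only mouse 1 correlated best with its own number. With the replicate block, which could use 4 numbers, 2 transcription factors had an unadjusted p under 0.05 (Pitx3 and Foxa2), 9 of the 15 target and effector genes did, and 8 genes passed after adjustment. The shares of all genes given above come from the fit without the block. The share of all genes under the block is not reported here, so the counts of 2 and of 9 cannot be judged from those shares. Under that block Lmx1a was 0.063, En2 0.19 and Sox6 −0.057. Pitx3 was at or under 3 counts in all mice but DJ-1-/- mouse 4, and Foxa1 in DJ-1+/+ mice 1, 3 and 4.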
